A study of Mus musculus with 24 samples.

Results

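The genes examined are 10 transcription factors that act in growth plate chondrocytes, the SOX trio Sox9, Sox5 and Sox6, their relative Sox4, the Runt factors Runx1, Runx2 and Runx3, the MADS-box factors Mef2c and Mef2d, and the zinc finger factor Sp7. They were taken as every probe set of the array whose symbol in the platform annotation, split at semicolons, is 1 of these 10 names. This gave 12 of 41345 probe sets, which cover 9 of the 10 genes. No probe set carries the symbol Runx2 in that annotation, so Runx2 levels were not analysed here. Sox4, Mef2c and Mef2d have 2 probe sets each, and the probe set with a single symbol and the highest mean represents the gene below. The representing probe sets are 17257946 (Sox9), 17472641 (Sox5), 17495340 (Sox6), 17286231 (Sox4), 17332236 (Runx1), 17419840 (Runx3), 17294682 (Mef2c), 17398970 (Mef2d) and 17322219 (Sp7), and the others are 17291525 (Sox4), 17288917 (Mef2c) and 17406682 (Mef2d).

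RNA was measured on 24 Affymetrix arrays of proximal tibial growth plate from mice aged 3 days, with 6 arrays in each of 4 groups. The groups are 2 zones, proliferative (PZ) and hypertrophic (HZ), of wild-type mice (WT) and of mice labelled Ezh2 KO, which the study calls Ezh1/2 mice (Col2-cre Ezh1-/- Ezh2 fl/fl) and which are called KO here. In the breeding the study describes, WT mice came from the same crosses on a mixed background and have Col2-cre and both Ezh2 copies, so that KO and WT alike lack Ezh1, and the genotypes differ in Ezh2 alone by design. The Col2 promoter drives Cre in cartilage and not in the adjoining perichondrium or bone. Each array holds laser-captured tissue of 1 zone of 1 animal pooled from many sections, and both sexes are in each genotype. The study used 6 mice of each genotype, so the 2 zones of a genotype come from the same mice.

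In the growth plate, chondrocytes divide in columns, leave the cell cycle, enlarge and are then replaced by bone. As established background, Sox9 with Sox5 and Sox6 drives the cartilage matrix genes and holds back hypertrophy, whereas Runx2, with Runx3 in a redundant role, and Mef2c drive hypertrophy and Col10a1, and Sp7 acts with Runx2 in terminal chondrocytes and osteoblasts. Ezh1 and Ezh2 are the alternative catalytic subunits of polycomb repressive complex 2 (PRC2), which trimethylates histone H3 at lysine 27, a mark of silent genes that often lies over CpG-rich promoters of developmental regulators.

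Promoters of these genes are shown first, because the Runx genes share a paired motif and because CpG-rich starts are where PRC2 is known to act. RefSeq promoter windows (build GRCm38.p6, 250 bases before to 50 bases after a gene start) matched 8 of the 10 genes with 17 windows, and Sox9 and Sp7 were not matched. The RUNX motif TGTGGT, read on both strands, occurs in 16.76% of all 32851 windows, all of which are 300 bases long. Of the 17 windows of the members, those with it were the first window of each of Runx1, Runx2 and Runx3 and windows 4 and 5 of Sox6. In all 3 Runx genes it stands as a pair separated by 2 bases, read as ACCACA on the gene strand and set in capitals here. The stretches are Runx1 at chr16:92826025-92826054 (minus strand), Runx2 at chr17:44814583-44814612 (minus strand) and Runx3 at chr4:135120503-135120532 (plus strand).
Runx1: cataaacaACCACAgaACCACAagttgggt
Runx2: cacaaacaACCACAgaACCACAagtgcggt
Runx3: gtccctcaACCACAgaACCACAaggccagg
This pair, with its 2 spacer bases, was searched for after it had been seen, and is in 4 of the 32851 windows (0.0122%). Besides these 3 they include the window of Gm16225, a gene on the other strand that overlaps the Runx3 window. The stretch begins 21 and 16 bases after the start in Runx1 and Runx2 and at position -142 in Runx3. No member window but window 5 of Sox6 held the SOX motif AACAAT (10.72% of all windows), and no member window but window 6 of Sox6 held the MEF2 consensus (3.187%).

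CpG content differed between windows, also within a gene. The second windows of Runx1 and Runx3 held 35 and 45 CpG, as many as or more than 93.77% and 98.35% of all windows, against a median of 7, and their first windows held 2 and 8. Mef2d held 24 and Sox4 12, the 6 windows of Sox6 held 2 to 13, the 3 of Mef2c 1 to 10, Sox5 held 3 and Runx2 2. The 100 bases before the start are given for 4 of them, with CpG in capitals: Runx3 window 2 at chr4:135152445-135152544 (plus strand), Runx1 window 2 at chr16:92697330-92697429 (minus strand), Sox4 at chr13:28953700-28953799 (minus strand) and Sox5 at chr6:143947107-143947206 (minus strand).
Runx3: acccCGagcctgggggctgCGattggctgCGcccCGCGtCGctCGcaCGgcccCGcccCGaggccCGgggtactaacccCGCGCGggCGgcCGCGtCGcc
Runx1: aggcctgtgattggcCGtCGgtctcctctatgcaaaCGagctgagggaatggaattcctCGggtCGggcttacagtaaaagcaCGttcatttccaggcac
Sox4: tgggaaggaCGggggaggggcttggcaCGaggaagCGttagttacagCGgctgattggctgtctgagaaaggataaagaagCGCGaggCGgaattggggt
Sox5: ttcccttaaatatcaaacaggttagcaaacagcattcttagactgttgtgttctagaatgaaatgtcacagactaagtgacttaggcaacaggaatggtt
These stretches hold 18, 6, 7 and 0 CpG. A motif or CpG count describes the letters of a window, and no binding or histone mark was measured on these arrays.

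All levels below are log2 values after robust multi-array averaging (RMA), so a difference of 1 is a doubling, and levels are compared between arrays for 1 probe set, never between genes. Medians over all probe sets lay between 4.33 and 4.48 on every array, and RMA values do not tell whether a probe set is above background. Arrays of a group correlated at 0.954 to 0.974 in the PZ and at 0.894 to 0.946 in the HZ, and the residual SD of a typical (median) probe set was 0.20 and 0.29 in these zones. Zone markers matched the labels, with 5 of 5 measured proliferative markers lower in the HZ and 6 of 7 hypertrophic markers higher in each genotype. In the KO HZ the remaining hypertrophic marker, Panx3, was called lower than in the KO PZ. Ezh2 was at 6.88 to 7.27 in the WT PZ and at 5.85 to 6.67 in the KO PZ, with no overlap, but at 5.88 to 6.60 in the WT HZ and 6.20 to 6.61 in the KO HZ. Ezh2 thus did not check the genotype labels of the HZ arrays, and each HZ genotype comparison below rests on those labels. Array WT HZ 1 was the nearest of the WT HZ arrays to the mean of the WT PZ for 6 of the 9 genes (Sox9, Sox5, Sox6, Sox4, Runx1 and Sp7).

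Between the zones all 9 genes differed in both genotypes. In WT mice Sox4, Mef2d, Runx1 and Mef2c were higher in the HZ by 2.33, 2.03, 1.64 and 1.3, and Sox5, Runx3, Sox6, Sox9 and Sp7 were lower by 1.85, 1.80, 1.27, 0.97 and 0.59. A call here is an adjusted p under 0.05 in limma over all 41345 probe sets. Over all probe sets, 33.2% were called between the zones of WT mice (17.3% higher and 15.9% lower in the HZ) and 29.9% in KO mice (14.3% higher and 15.6% lower). The median difference was -0.59 over the 9 genes and 0.08 over all probe sets in WT, and -0.65 and 0.04 in KO. With 4 genes higher and 5 lower, the median over the 9 is the value of Sp7 in each genotype and describes no common shift. The zones did not overlap in 8 of the 9 genes in WT (all but Sox9) and in 8 of the 9 in KO (all but Sp7), against 14.2% of all probe sets in WT and 14% in KO. In bulk tissue of this kind, fewer cells of a type and less RNA per cell cannot be told apart.

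**Figure D1:**
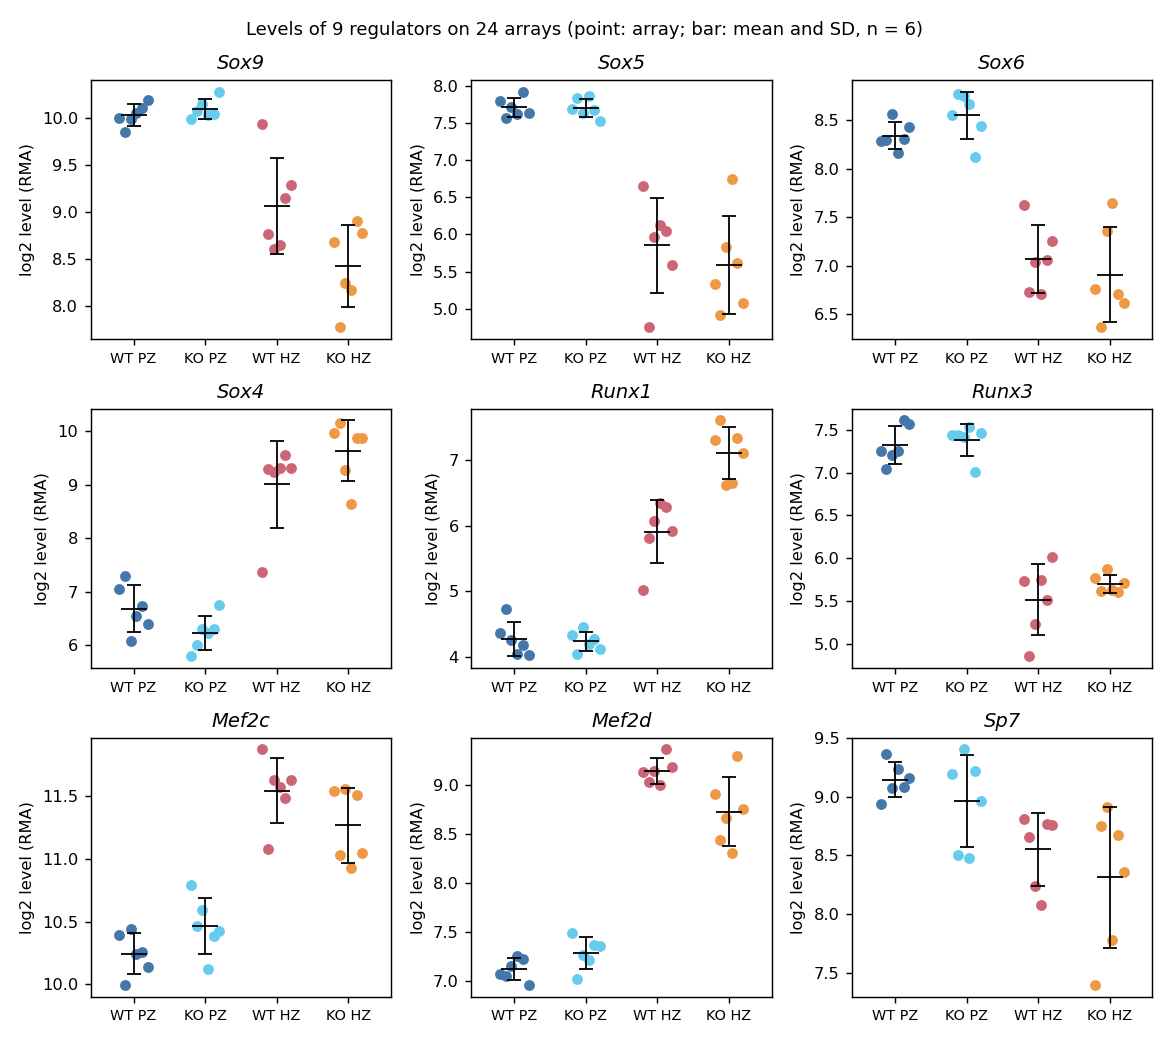
Log2 level (RMA, vertical axis, a separate scale for each gene) of 9 regulators on the 24 arrays in the 4 groups of 6, with 1 point per array and bars for the mean and SD. All 6 KO HZ points of Runx1 (6.61 to 7.60) lie above all 6 WT HZ points (5.02 to 6.34), while the genotypes overlap in every other panel.

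Sox9, the master regulator of chondrocyte identity, was among the steadiest genes of the set in the PZ and spread widely in the HZ. In the WT PZ its lowest, median and highest levels were 9.85, 10.03 and 10.19, and in the KO PZ 9.998, 10.06 and 10.29. In the WT HZ they were 8.61, 8.96 and 9.94, and in the KO HZ 7.78, 8.47 and 8.91. The 5 lower WT HZ arrays (8.61 to 9.29) were below every PZ array, and WT HZ 1, at 9.94, lay within the PZ range. The SD was 0.12 and 0.11 in the PZ of WT and KO mice and 0.51 and 0.43 in the HZ. The zone difference was -0.97 (SE 0.19, adjusted p = 0.000448, 1.95-fold lower) in WT and -1.67 (SE 0.19, adjusted p = 5.19e-07, 3.18-fold lower) in KO. Without WT HZ 1 the WT difference was -1.14.

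Sox5 and Sox6, the partners that bind DNA beside Sox9 at cartilage enhancers, were both lower in the HZ of each genotype. Sox5 had lowest, median and highest levels of 7.57, 7.67 and 7.92 in the WT PZ and of 7.53, 7.68 and 7.86 in the KO PZ. In the HZ they were 4.75, 6.01 and 6.65 in WT and 4.92, 5.48 and 6.75 in KO. The zones did not overlap, and the HZ arrays spread over more than a log2 unit in each genotype. Sox5 fell by 1.85 in WT (3.61-fold, adjusted p = 7.03e-06) and by 2.11 in KO (4.32-fold, adjusted p = 1.22e-06). Sox6 ran from 8.16 over a median of 8.30 to 8.56 in the WT PZ and from 8.12 over 8.61 to 8.77 in the KO PZ. Its HZ levels were 6.71, 7.05 and 7.63 in WT and 6.37, 6.73 and 7.64 in KO. Again no HZ array reached the PZ range. Sox6 fell by 1.27 in WT (adjusted p = 1.25e-05) and by 1.64 in KO (adjusted p = 4.04e-07).

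Sox4, a SoxC factor of progenitor and mesenchymal cells, ran the other way. Its lowest, median and highest levels were 6.09, 6.64 and 7.29 in the WT PZ and 5.80, 6.27 and 6.75 in the KO PZ. In the HZ they were 7.37, 9.30 and 9.54 in WT and 8.63, 9.87 and 10.15 in KO. WT HZ 1 was the array at 7.37, the other 5 WT HZ arrays lay within 9.23 to 9.54, and the zones did not overlap. Sox4 was 5.02-fold higher in the HZ of WT mice (2.33, SE 0.31, adjusted p = 3.77e-06) and 10.5-fold higher in that of KO mice (3.39, SE 0.31, adjusted p = 1.95e-08). The second Sox4 probe set gave 2.07 and 3.08. Without WT HZ 1 the WT difference of the first was 2.66.

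The Runt factors split. Runx1, which is needed for blood stem cells and is also made in skeletal progenitors, was at 4.04, 4.22 and 4.73 (lowest, median and highest) in the WT PZ and at 4.04, 4.23 and 4.45 in the KO PZ. In the HZ it was at 5.02, 5.99 and 6.34 in WT and at 6.61, 7.20 and 7.60 in KO. The 4 sets of arrays thus made 3 separate levels, with both PZ groups lowest and near the median of all probe sets, WT HZ between and KO HZ highest. The zone difference was 1.64 (SE 0.19, adjusted p = 7.07e-07) in WT and 2.86 (SE 0.19, adjusted p = 1.84e-10) in KO. Since the PZ levels lie at or near the array median and may be background, no fold is given for these differences. Runx3, which shares the hypertrophy role of Runx2, was at 7.04, 7.25 and 7.61 in the WT PZ and at 7.01, 7.44 and 7.53 in the KO PZ. In the HZ it was at 4.86, 5.63 and 6.02 in WT and at 5.60, 5.67 and 5.88 in KO. It was lower in every HZ array than in any PZ array, by 1.80 in WT (3.49-fold, adjusted p = 3.87e-09) and by 1.68 in KO (3.21-fold, adjusted p = 1.31e-08).

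Mef2c and Mef2d, factors that class II histone deacetylases hold in check, were both higher in the HZ. Mef2c was at 9.99, 10.25 and 10.44 in the WT PZ and at 10.12, 10.44 and 10.79 in the KO PZ. In the HZ it was at 11.08, 11.60 and 11.87 in WT and at 10.92, 11.28 and 11.56 in KO. Every HZ array lay above every PZ array. The difference was 1.3 in WT (SE 0.14, adjusted p = 1.84e-07) and 0.80 in KO (SE 0.14, adjusted p = 0.000109), and the second Mef2c probe set gave 1.34 and 0.94. Mef2d was at 6.96, 7.11 and 7.25 in the WT PZ and at 7.02, 7.31 and 7.49 in the KO PZ. In the HZ it was at 9.004, 9.14 and 9.37 in WT and at 8.30, 8.71 and 9.30 in KO. The WT groups were tight, with SDs of 0.11 and 0.13, and the KO HZ arrays spread with an SD of 0.36. Mef2d was 4.08-fold higher in the HZ of WT mice (2.03, SE 0.12, adjusted p = 3.95e-11) and 2.72-fold higher in that of KO mice (1.44, SE 0.12, adjusted p = 1.03e-08). Another probe set, whose symbols are Mef2d and 1700113A16Rik, was at 4.05 to 6.07 on all arrays and gave -0.24 (adjusted p = 0.504) and -0.49 (adjusted p = 0.179), so the rise of Mef2d holds for 1 of its 2 probe sets.

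Sp7, also called osterix, showed the smallest zone difference of the set. It was at 8.94, 9.12 and 9.37 in the WT PZ and at 8.07, 8.70 and 8.81 in the WT HZ, with no overlap. In KO mice it was at 8.48, 9.08 and 9.40 in the PZ and at 7.39, 8.52 and 8.92 in the HZ, and the zones overlapped. Sp7 fell by 0.59 in WT (adjusted p = 0.0415) and by 0.65 in KO (adjusted p = 0.0284). Both calls ended under other settings, for example after another round of quantile normalization, where the differences were -0.38 (adjusted p = 0.191) and -0.41 (adjusted p = 0.147). They also ended when single arrays were left out, in WT without any 1 of WT PZ 2 to 6 or WT HZ 3 or 4, and in KO without any 1 of KO PZ 1, 3 or 5 or KO HZ 1 or 4, with differences of -0.50 to -0.61 and of -0.47 to -0.60.

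**Figure D2:**
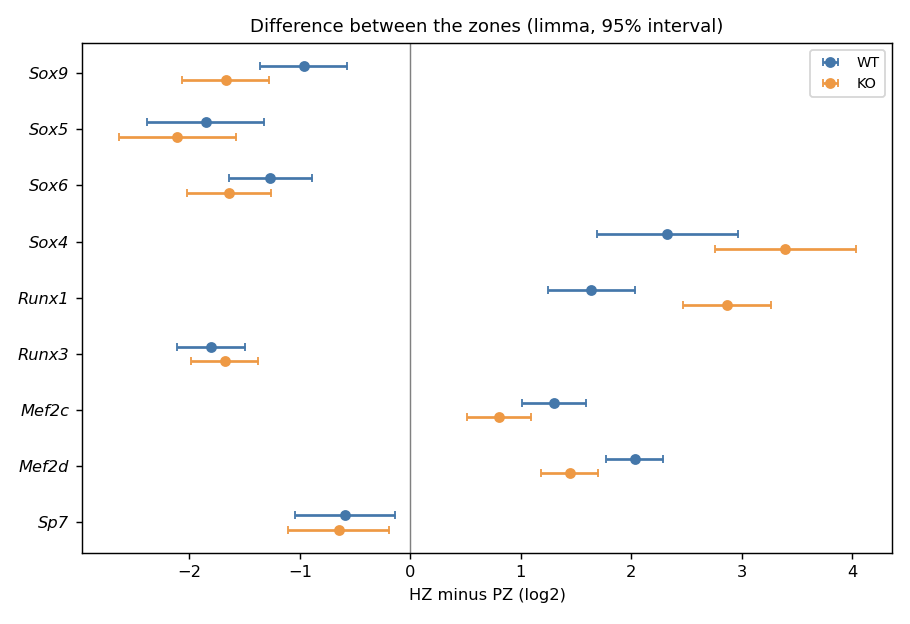
Difference between the zones (HZ minus PZ, log2, horizontal axis) of the 9 regulators in WT and KO mice, with the 95% interval from limma over 24 arrays. Sox4, Runx1, Mef2c and Mef2d lie to the right of 0 in both genotypes and the other 5 genes to the left.

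Markers of some other cells moved with the zones. In the HZ against the PZ, 7 of 7 endothelial and 8 of 8 white blood cell markers were called higher in both genotypes, and 5 of 7 osteoclast markers in WT and 7 of 7 in KO. Of all probe sets, 17.3% were called higher in WT and 14.3% in KO. Summed as the mean level of each list on an array, the white blood cell list ran from 4.11 to 5.87 in the WT PZ, 4.47 to 5.41 in the KO PZ, 5.61 to 6.66 in the WT HZ and 5.55 to 6.96 in the KO HZ. The osteoclast list ran from 3.92 to 5.72, 4.26 to 5.16, 5.22 to 6.27 and 5.73 to 6.90 in the same order. The endothelial list ran from 3.70 to 4.82 and 3.70 to 4.14 in the PZ and from 4.36 to 6.37 and 5.21 to 6.42 in the HZ. The lowest HZ array on all 3 lists in WT was WT HZ 1. In other lists fewer markers were called between the zones, though their median differences were not all small. These were -0.19 in WT and 0.91 in KO for skeletal muscle. They were -0.25 and 0.74 for perichondrium and fibroblast, and 0.26 and 0.54 for osteoblast. Of 9 skeletal muscle markers 0 were called in WT and 1, higher, in KO. Of 8 perichondrium and fibroblast markers 1 was higher and 1 lower in each genotype. Of 6 measured osteoblast markers 1 was higher in WT and 2 in KO, and 0 were lower. The skeletal muscle list ran from 4.50 to 7.77 in the WT HZ and 4.51 to 9.45 in the KO HZ. The perichondrium and fibroblast list ran from 4.66 to 6.39 and 4.69 to 7.97. None of the markers of these lists was called between genotypes in the HZ, as were 0.0169% of all probe sets. The part of these cells in the zone differences of Runx1, Sox4 and the other members was not tested.

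Known targets of these factors also differed between the zones, but some of them are the zone markers used above to check the labels. In the SOX list these are Ucma and Fgfr3, whose zone differences are no separate result. Of 20 targets of the SOX trio in cartilage, 12 were called lower and 0 higher in the HZ of WT mice, with a median of -0.62. In KO mice 16 were lower and 0 higher, with a median of -1.13, against 15.9% of all probe sets called lower in WT and 15.6% in KO. The lowest p-values in WT were those of Prelp, a matrix leucine-rich repeat protein (-4.40), Ucma, an inhibitor of mineralization made by upper-zone chondrocytes (-4.63), and Col9a1, a collagen IX chain (-1.19), with adjusted p of 3.05e-08, 2.37e-06 and 2.17e-05. In KO mice they were those of Prelp (-4.12), Col9a1 (-1.66) and Matn3, a cartilage matrilin (-2.001). Col2a1 and Acan, the main cartilage collagen and proteoglycan, were among those not called, with -0.07 and 0.23 in WT (adjusted p = 0.685 and 0.062) and -0.29 and -0.06 in KO.

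Of 15 targets of Runx2, Mef2c and Sp7 in hypertrophic cells and bone, 12 were measured. Among them Col10a1, Ihh, Mmp13, Ibsp, Alpl and Panx3 are also the hypertrophic markers used above, so their zone differences are no separate result. In WT mice 9 of the 12 were higher in the HZ, 0 lower and 3 not called, with a median of 2.0. In KO mice 10 were higher and 1, Panx3, was lower (-0.94, adjusted p = 0.000256), with a median of 2.0. Col10a1, the collagen of hypertrophic cartilage, was higher by 3.27 and 3.65 in WT and KO, and Alpl, the phosphatase of mineralizing cells, by 2.77 and 2.07. Ihh, the hedgehog ligand of prehypertrophic cells, was higher by 2.14 in WT. Phex, an endopeptidase of mineralizing cells, was higher by 3.11 in KO. Of all probe sets 17.3% were called higher in WT and 14.3% in KO. Over all probe sets the median zone difference was 0.08 in WT and 0.04 in KO, and over those with a mean level above 5 it was -0.24 and -0.23.

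**Figure D3:**
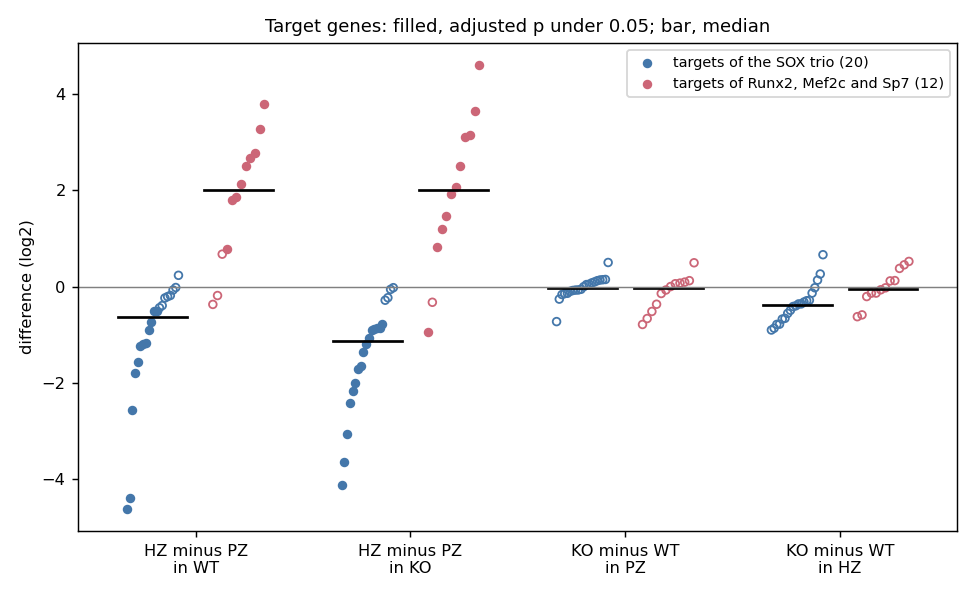
Log2 difference (vertical axis) of 20 SOX trio targets and 12 targets of Runx2, Mef2c and Sp7 in 4 comparisons, sorted within each list, with filled points for an adjusted p under 0.05 and a bar at the median. In WT the medians of the lists were -0.62 and 2.0 between the zones, and no target was called between the genotypes in either zone.

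Of 30 partners and regulators of these factors 28 were measured, and in WT 11 were higher and 8 lower in the HZ, against 9 and 8 in KO. For this list and those that follow here, the share of all probe sets called was 17.3% higher and 15.9% lower in WT. In KO it was 14.3% higher and 15.6% lower. Nkx3-2, a repressor of Runx2 that maintains immature cartilage, was at -1.43 in WT and -1.49 in KO (adjusted p = 7.18e-09 and 4.86e-09). Hdac5, a class II deacetylase that binds Mef2 proteins, rose by 1.53 and by 1.41. Pth1r, the receptor for parathyroid hormone-related protein, rose by 1.32 in WT, and Hes1, a Notch target, by 1.62 in KO. Among 15 other Sox genes 4 were higher and 3 lower in WT and 3 each way in KO. Sox8, the SoxE relative of Sox9, fell by 2.34 in both genotypes, and Sox18, a factor of endothelial cells, rose by 1.26 and by 1.62. Sox1, a neural factor, was among the 4 with 0.36 in WT, and Sox7, another endothelial factor, among the 3 with 0.62 in KO. Of 8 measured Mef2 and Sp relatives, Mef2a rose by 0.89 and by 0.88, and Sp4 (-0.70 and -0.58) and the ubiquitous factor Sp1 (-0.44 and -0.33) fell. Sp9 (0.31 and 0.29, adjusted p = 0.0215 and 0.0354) was the other gene of this list that was higher, named after its values were seen.

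The genotype comparison asked which of these regulators change with the loss of Ezh2. In the PZ none of the 9 genes was called, with adjusted p of 0.642 to 0.995, against 0.411% of all probe sets. No member had groups without overlap, against 0.834% of all probe sets. Differences ran from -0.45 (Sox4) to 0.22 (Mef2c), and the median was 0.06 over the members and -0.002 over all probe sets. Sox4 was the 1 member with an unadjusted p under 0.05, as were 7.47% of all probe sets, with -0.45 (95% interval -0.88 to -0.01, unadjusted p = 0.0442, adjusted p = 0.642, exact permutation p = 0.0736). Its second probe set was at -0.40 (interval -0.83 to 0.04, unadjusted p = 0.07). The interval was -0.10 to 0.23 for Sox9 and -0.19 to 0.17 for Sox5. Sox6 was at 0.21 (interval -0.03 to 0.46), Mef2c at 0.22 (-0.02 to 0.46), Mef2d at 0.17 (-0.02 to 0.36), Runx3 at 0.06 (-0.19 to 0.31), Runx1 at -0.03 (-0.29 to 0.22) and Sp7 at -0.18 (-0.52 to 0.16).

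In the HZ none of the 9 genes was called at an adjusted p under 0.05, as were 0.0169% of all probe sets, but Runx1 stood apart. All 6 KO HZ arrays (6.61 to 7.60) were above all 6 WT HZ arrays (5.02 to 6.34), as was so, in either direction, for 0.457% of all probe sets. Its difference was 1.19 (SE 0.23, 95% interval 0.69 to 1.70, 2.29-fold higher), with an unadjusted p of 0.000196, an adjusted p of 0.186 and an exact permutation p of 0.0022, the smallest that 6 against 6 arrays allow. At the thresholds the study used, an unadjusted p under 0.001 and a fold over 1.3, Runx1 was the 1 member that passed, with 0.329% of all probe sets. With the spread shared by all 24 arrays the adjusted p was 0.00525, the 1 of 21 alternatives with an adjusted p under 0.05. That spread takes in the PZ, where the SD of Runx1 was 0.26 in WT and 0.15 in KO, against 0.48 and 0.40 in the HZ. Over all alternatives the difference was 1.02 to 1.33 and the adjusted p 0.00525 to 0.45, and without WT HZ 1 they were 1.02 and 0.168. Of the markers of the osteoclast list 2 of 7, and of the white blood cell list 1 of 8, were higher in the KO HZ at an unadjusted p under 0.05. That level was reached, in either direction, by 6.6% of all probe sets. The median difference was 0.37 for the osteoclast list, 0.26 for the white blood cell list and 0.32 for the endothelial list, against -0.02 over all probe sets. The ranges of these lists over arrays, given above, overlapped between the genotypes. The part of these cells in the Runx1 difference was not tested.

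The other members overlapped between the genotypes in the HZ. Sox9 was lower in KO mice by 0.64 (95% interval -1.18 to -0.10, unadjusted p = 0.0232, adjusted p = 0.656, exact permutation p = 0.0411). Mef2d was lower by 0.42 (interval -0.75 to -0.08, unadjusted p = 0.0181, adjusted p = 0.61, exact permutation p = 0.0281). The other Mef2d probe set was at -0.16 (interval -0.79 to 0.47, unadjusted p = 0.59). By their representing probe sets, Runx1, Sox9 and Mef2d were thus 3 of 9 members at an unadjusted p under 0.05, against 6.6% of all probe sets. Mef2c was at -0.28 (interval -0.62 to 0.07) and its second probe set at -0.33 (interval -0.65 to -0.008, unadjusted p = 0.0453, adjusted p = 0.744). Sox4 was at 0.62 (-0.16 to 1.40), Sox5 at -0.27 (-0.99 to 0.46), Sp7 at -0.24 (-0.79 to 0.31), Runx3 at 0.18 (-0.18 to 0.55) and Sox6 at -0.16 (-0.65 to 0.32). Without WT HZ 1 the difference was -0.47 for Sox9, 0.29 for Sox4, -0.11 for Sox5 and -0.05 for Sox6. The median was -0.24 over the members and -0.02 over all probe sets. The intervals for Sox4, Sox9 and Sox5 take in changes of a log2 unit or nearly so, so 6 arrays a group leave changes of that size possible.

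**Figure D4:**
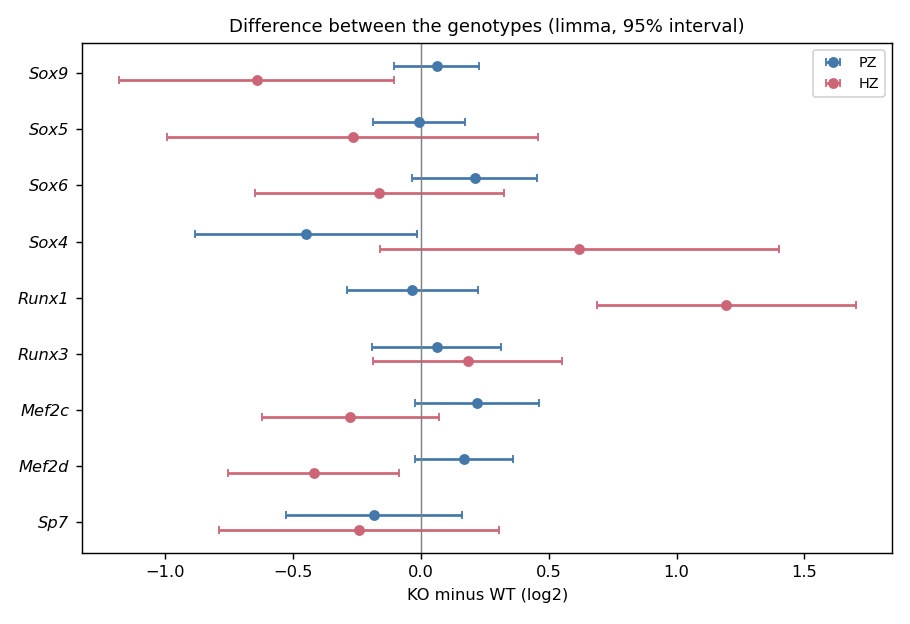
Difference between the genotypes (KO minus WT, log2, horizontal axis) of the 9 regulators in the PZ and the HZ, with the 95% interval from limma over the 12 arrays of a zone. Runx1 in the HZ is at 1.19 (0.69 to 1.70), and no member was called at an adjusted p under 0.05.

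The difference between the genotype effects of the zones was tested as an interaction over 24 arrays, and no member was called, as were 0.029% of all probe sets. Of the 9 members 5 had an unadjusted p under 0.05, against 5.66% of all probe sets. Runx1 was at 1.23 (SE 0.27, unadjusted p = 0.000149, adjusted p = 0.18) and Sox4 at 1.07 (SE 0.43, adjusted p = 0.792). Mef2d was at -0.59 (SE 0.18, unadjusted p = 0.00293, adjusted p = 0.465), Sox9 at -0.70 (SE 0.27, adjusted p = 0.74) and Mef2c at -0.50 (SE 0.20, adjusted p = 0.768). The other Mef2d probe set, which showed no rise between the zones, was at -0.25 (SE 0.38, unadjusted p = 0.526). These values equal the KO zone difference less the WT zone difference of each gene, so that in the KO mice the rises of Runx1 and Sox4 measured larger, the rises of Mef2c and Mef2d smaller and the fall of Sox9 larger, none of them past the adjusted threshold. When WT HZ 1 was left out, the interaction was 1.05 for Runx1, 0.74 for Sox4 and -0.53 for Sox9.

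Targets of the members gave no call between the genotypes, where 0.411% of all probe sets were called in the PZ and 0.0169% in the HZ. Of the 20 SOX trio targets 5 were lower and 0 higher in the KO HZ at an unadjusted p under 0.05, with a median of -0.38. That level was reached, in either direction, by 6.6% of all probe sets in the HZ. The lowest p-values were those of Comp (-0.79, adjusted p = 0.412), Fgfr3, the receptor that restrains chondrocyte division (-0.78, adjusted p = 0.446), and Matn3 (-0.90, adjusted p = 0.487). Of the 12 hypertrophic targets 1 was higher and 2 lower at that level, Ibsp at 0.52, Ihh at -0.59 and Panx3 at -0.63 (adjusted p = 0.413 for Ihh and 0.561 for Panx3). In the PZ the 1 regulator called was Dlx6, a homeobox gene that with Dlx5 promotes hypertrophy (0.58, SE 0.10, adjusted p = 0.0266). Sox2, a pluripotency factor, had the lowest p of the other Sox genes in both zones, with 0.82 in the PZ (adjusted p = 0.193) and 0.54 in the HZ (adjusted p = 0.589).

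Genes whose pattern was most like that of 3 members were found by Pearson's r over the 24 arrays. For Sox9 they were Ltv1, Rrbp1 and Gfpt1 (r = 0.95, 0.95 and 0.94), for Mef2c Nyap1, Snrnp48 and Cep85l (r = 0.96, 0.96 and 0.95), and for Runx1 Kif21b, Csf1 and Itgb3 (r = 0.97, 0.96 and 0.96). The arrays of a zone share that zone, so r was also taken within each set of 12. Within the PZ it was 0.75, 0.75 and 0.59 for the genes near Mef2c, from -0.17 to 0.30 for those near Sox9 and from 0.04 to 0.09 for those near Runx1. Within the HZ it was 0.73 to 0.81, 0.84 to 0.88 and 0.84 to 0.92 in the same order. Csf1, the growth factor of macrophages and osteoclasts, and Itgb3, an integrin chain of osteoclasts and platelets, thus had a high r with Runx1 within the HZ and an r near 0 within the PZ. All these genes were picked by r over arrays that include the HZ, so a high r there is a description and no test. The 12 HZ arrays also pool genotypes between which Runx1 did not overlap, and Runx1 in the PZ may be background.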

How the data were processed

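RNA of the PZ and HZ was amplified and measured on Mouse Gene 2.0 ST arrays (Affymetrix). The authors corrected background, normalized and summarized the probes by RMA in Partek and deposited log2 values for 41345 probe sets. Scanner files were not used here. Groups came from the sample labels, and each array is a sample of 1 zone of 1 animal. Both zones of a genotype come from the same mice, and the reported zone and interaction fits did not pair them.

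Probe sets were named by the platform annotation (23521 with 1 symbol, 1820 with several and 16004 with none). Genotypes were compared within the 12 arrays of a zone, and zones and the interaction over 24 arrays, with limma 3.58.1 in R 4.3.3, two-sided, with Benjamini-Hochberg adjustment over all probe sets and calls at an adjusted p under 0.05. Exact permutation tests used the 924 arrangements of 6 against 6 arrays. The number of arrays limits the precision. The script was tested on simulated data.

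The members, gene lists and tests were chosen with earlier results of these data known. Genes named from a list are up to 3 with the lowest p per comparison, besides members, zone markers and genes singled out after their values were seen. Such are Col2a1 and Acan, Panx3 in the KO zones and the symbol partner of Mef2d. Alternatives covered normalization, array weights, a filter on dim probe sets, variance moderation, the study's thresholds, the spread shared by all arrays or taken within a genotype, doubtful arrays, a replicate block and single arrays left out. Of 12 animal numbers, 2 had zones unlike in sex-linked genes, and deviations of both zones of a number correlated at -0.13 to 0.28 (6 of 12 over 0.1), so that no block was used in the reported fits.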

Additional observations from a re-analysis of the deposited data

Results flagged for a closer look

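In 3 of 48 combinations of group and probe set a single array stood apart from the other 5 of its group by Dixon's test, and chance gives about 1 in 20. Sox4 was at 7.37 on WT HZ 1, against 9.23 to 9.54 on the other WT HZ arrays. Runx3 was at 7.01 on KO PZ 5, against 7.41 to 7.53 on the others. The second Mef2c probe set was at 8.65 on KO PZ 3, against 7.92 to 8.18 on the others.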

How the results depend on the processing

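All 9 members remained called between the zones, with directions kept, under every alternative except Sp7 and the second Mef2d probe set (-0.24 in WT and -0.49 in KO). Sp7 kept an adjusted p under 0.05 in 23 of 33 alternatives in WT (-0.64 to -0.38) and 23 of 32 in KO (-0.77 to -0.41), and passed the study's thresholds in neither. With the animal number as a replicate block 9 members were called between the zones in each genotype and 0 for the interaction, and with the replicate number as a fixed block 0 were called in either genotype comparison. In the HZ 1 member, Runx1, was called by the study's thresholds and 1 with the spread shared by all 24 arrays, and the interaction had 1, Runx1, by the study's thresholds. Differences near 0 changed sign. Sox5 in the PZ gave 0.0424 after quantile normalization, 0.0457 without the numbers unlike in sex-linked genes, and -0.0398 to 0.0345 with 1 array left out. Runx1 in the PZ gave -0.0785 to 0.0604 with 1 array left out. Without the HZ arrays of narrow range (WT HZ 1, WT HZ 4 and KO HZ 1), Sox5 gave 0.0516 in the HZ and 0.0596 for the interaction, and Sp7 gave 0.0721 for the interaction, as it did with array weights (0.0655). With 1 array left out the interaction ran from -0.18 to 0.13 for Sp7 and from -0.00977 to 0.222 for Runx3. The causes were not tested. Arrays varied more in the HZ than in the PZ, which limits what the HZ comparison can show.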
